A study of Danio rerio with 6 samples.

Results

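Integrin subunits were followed in the adult zebrafish telencephalon as a gene family, chosen by name. All 32520 genes counted in the series were searched for Ensembl gene names that start with itga or itgb, which gave 37 genes. Names that start with itgb1bp or itgbl were left out, and 35 genes remained. One of these, *itgb3bp*, encodes a centromere protein and no integrin subunit, and its values are given apart at the end. The other 34 genes were divided into 7 leukocyte subunits (*itgb2*, *itgb7*, *itgae.1*, *itgae.2*, *itgam.1*, *itgam.2* and *ITGA4*) and 27 subunits whose partners mainly bind extracellular matrix. The names itgal and itgax, also listed for leukocytes, matched no gene name and were not analysed here. Polyadenylated RNA was sequenced from 3 injured telencephalic hemispheres, stabbed with a syringe needle, at 5 days post lesion (dpl), and from 3 uninjured hemispheres that served as control. The study gives the control as the hemisphere on the other side of the brain. Each hemisphere was 1 library. Genotype, strain and age of the fish were not given in the sources used here, and no transgene or other agent was named for either condition.

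Integrins are receptors of the plasma membrane that join 1 alpha to 1 beta subunit, and most cells of an animal carry several such pairs. The extracellular parts of a pair decide its ligand. Pairs with Itgb1 bind fibronectin, laminins or collagens according to the alpha subunit, pairs with Itgav bind ligands that hold the peptide RGD, and Itga6 with Itgb4 anchors cells to laminin. In mammals, Itgb2 pairs are restricted to leukocytes, where they serve adhesion to the vessel wall, uptake of particles coated with complement, and migration. In the brain, microglia are the resident cells that carry them. On the inside, talins and kindlins bind the beta tail and switch the receptor on, and a set of adaptor proteins links it to actin.

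Expression is given as CPM (the usual unit of read counts scaled to the reads on genes of a library, here after TMM normalization). Changes are log2 fold changes (log2FC), positive where the injured side was higher, with their standard error (SE), and adjp is the *p*-value of edgeR's quasi-likelihood test adjusted over all 22558 genes tested, with a gene called changed below 0.05. For a single value in 3 and 3 libraries, the smallest *p* that an exact permutation (two-sided) can reach is 0.1. Between 59675791 and 91663196 reads per library fell on genes. Samples with the same replicate number in both conditions deviated together. A fit with replicate number as a term is given where it changed the call of an integrin subunit. For markers, machinery and ligands it is given only in part, so a count without it may differ in that fit. CPM of different genes also depend on transcript length, so changes are compared between libraries within a gene. Where genes are called scarce or abundant, or are summed, the levels refer to reads and not to numbers of transcripts.

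Markers of other cells moved with the injury. Over all genes tested, 11.6% were called higher and 4.82% lower, and with replicate number as a term 19.9% and 16.2%. Every gene matched to a marker symbol was counted, so genes that share a name count separately. Of 16 tested leukocyte markers, 12 were called higher. The other 4 were not called, with log2 fold changes down to -0.59, and 2 were lower in every replicate number. The summed level of the list was 348 to 360 CPM in control and 713 to 768 CPM in injured hemispheres, mostly from *cd74a*. Endothelial markers (7 of 8 called higher), markers of mural cells and fibroblasts (6 of 10), radial glia (5 of 8) and the oligodendrocyte lineage (4 of 7, and 7 of 7 with the replicate term) also held genes called higher. Of 7 neuronal markers, 3 were called lower. None of the 10 telencephalic genes was called changed (1 higher and 1 lower with the replicate term), and their sum lay between 1502 and 1644 CPM in all libraries, so the labelled tissue was present in each. Of 5 T lymphocyte markers, 2 were called higher (4 with the replicate term), and their sum was 5.01 to 6.97 CPM in control and 9.21 to 13.3 CPM in injured hemispheres. Of 4 neutrophil markers, *lyz* was at 0 reads in all libraries and 2 passed the filter, of which *mmp9* was called higher (log2 fold change 2.32, SE 0.18, adjp = 9.73e-04) and *nccrp1* only with the replicate term (adjp = 0.0895 without and 0.0186 with it). The sum over this list was 18.7 to 23.7 CPM in control and 44.6 to 61.3 CPM in injured hemispheres. It rests mainly on these 2 genes, and the log2 fold change of *nccrp1* was only 0.30. None of 6 thrombocyte markers was called (1 higher with the replicate term), and none of 5 skin and epithelial markers. Transcripts of pineal and photoreceptor genes stood at 84.9 and 199 CPM in injured replicates 1 and 3, against 5.09 to 6.15 CPM in the other 4 libraries. In bulk tissue, a change in the number of cells of a type and a change in RNA per cell cannot be told apart, and the part of these shifts in the results below was not tested.

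Integrin transcripts were higher after injury or were not called changed, and none was called lower. Of the 34 subunits, all of which passed the filter on low counts, 15 were called higher (44.1%). Over all genes tested these shares were 11.6% higher and 4.82% lower. The median log2 fold change was 0.40 for the subunits and -0.0038 for all genes tested. For 18 subunits (52.9%) the lowest injured library exceeded the highest control, against 20.3% of all genes. None had all injured libraries below the controls, against 15.5% of all genes. With replicate number as a term, 19 were called higher (55.9%) and 1 lower, where 19.9% of all genes were called higher and 16.2% lower. The number of subunits called was 9 without control replicate 1 or control replicate 3, and 10 to 12 without each of the other libraries.

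**Figure D1:**
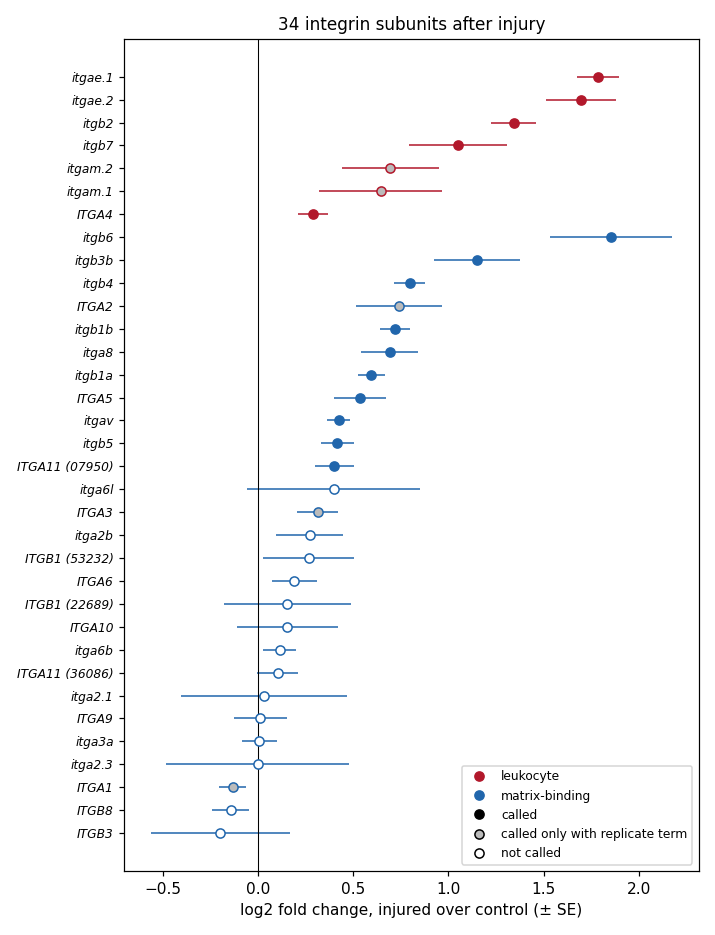
Log2 fold change of injured over control hemispheres (points) with its standard error (bars) for 34 integrin subunits, leukocyte subunits in red and matrix-binding subunits in blue, where digits in brackets are the end of the identifier of genes with a shared name. Filled points had an adjp below 0.05, grey points only with replicate number as a term, and white points in neither fit. The 5 filled leukocyte points ranged from 0.29 for *ITGA4* to 1.79 for *itgae.1*.

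The leukocyte subunits held 4 of the 6 log2 fold changes above 1. The matrix-binding subunits had 10 of 27 called higher (37.0%), with a median log2 fold change of 0.27, where 11.6% of all genes were. Of the 7 leukocyte subunits, 5 were called higher (71.4%), with a median of 1.05. All 7 were higher in the injured than in the control library of every replicate number, which held for 31.5% of all genes (31.6% were lower each time). These counts describe the 2 groups of subunits, and their difference was not tested. The number called fell to 3 leukocyte subunits without control replicate 1 or 3 or injured replicate 1 or 2, and to 6 matrix-binding subunits without control replicate 1 or 3.

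*itgb2* (ENSDARG00000016939) encodes the beta subunit shared by the leukocyte-restricted pairs. Its transcripts were at 20.1, 25.8 and 19.7 CPM in controls and at 55.9, 60.2 and 50.3 CPM after injury. The injured libraries stood far above the controls, with no overlap. This gave a log2FC of 1.34 (SE 0.12, adjp = 0.00121), and adjp was at most 0.0086 with each library left out.

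*itgb7* (ENSDARG00000044318), the beta subunit that pairs with Itga4 or Itgae on mammalian lymphocytes, was scarce, with 40 to 216 reads per library. Its levels were 0.686, 1.06 and 0.842 CPM in controls and 1.71, 2.30 and 1.35 CPM after injury. All injured libraries were above all control libraries. The step was a log2FC of 1.05 (SE 0.26, adjp = 0.0323). Leaving out control replicate 1 or 3 gave an adjp of 0.104 or 0.106, and leaving out injured replicate 1 or 2 gave 0.0647 or 0.0912.

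The 2 genes named for the alpha subunit Itgae, which in mammals pairs with Itgb7 and binds E-cadherin, had the largest increases among the leukocyte subunits. In the RefSeq annotation of GRCz12tu, another assembly than the one used for the counts, they lie near each other with 1 protein-coding gene between them, and how reads were divided between the copies was not tested. *itgae.1* (ENSDARG00000098012) was at 10.2, 10.7 and 9.85 CPM in controls and at 35.0, 40.8 and 30.3 CPM after injury. Its control libraries lay close together and the injured libraries stood far above them. The log2FC was 1.79 (SE 0.11, adjp = 5.50e-04). *itgae.2* (ENSDARG00000057787) rose from 1.95, 2.33 and 3.23 CPM to 7.89, 7.71 and 8.83 CPM, a log2FC of 1.70 (SE 0.18, adjp = 0.00227). Both genes stayed called with each library left out. The ratio of *itgae.1* to *itgb2* CPM was 0.415 to 0.510 in controls and 0.604 to 0.677 after injury.

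*itgam.1* and *itgam.2* carry the name of the alpha subunit of the mammalian complement receptor Mac-1, found on microglia, macrophages and neutrophils. *itgam.1* (ENSDARG00000002956) was at 22.5, 52.3 and 44.7 CPM in controls and at 42.6, 76.6 and 68.0 CPM after injury. The conditions overlapped, since injured replicate 1 lay below control replicates 2 and 3. Between libraries of the same number the injured one was higher each time, by 0.92, 0.55 and 0.60 on the log2 scale. The log2FC of 0.65 (SE 0.32) had an adjp of 0.230 without and 6.60e-04 with the replicate term. *itgam.2* (ENSDARG00000096587) was at 2.18, 3.87 and 2.37 CPM in controls and at 4.33, 5.63 and 3.67 CPM after injury. It also overlapped, with log2 differences of 0.99, 0.54 and 0.63 within numbers. The log2FC of 0.69 (SE 0.25) had an adjp of 0.111 without and 0.00366 with the replicate term, and 0.0355 without control replicate 2. The Benjamini-Hochberg adjusted *p*-value of the DESeq2 Wald test, by which 13.8% of all genes were called higher and 8.85% lower, was 0.0387 for *itgam.2* and 0.278 for *itgam.1*.

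*ITGA4* (ENSDARG00000103056) encodes the alpha subunit that binds VCAM-1 and fibronectin, in mammals on lymphocytes and monocytes but also on other cells. It was at 12.02, 12.8 and 11.6 CPM in controls and at 14.2, 16.2 and 14.1 CPM after injury. The groups did not overlap, but the step was small. The log2FC of 0.29 (SE 0.080, adjp = 0.0477) was the lowest of the 7 and near the threshold. Its adjp was between 0.0722 and 0.145 with each library left out, and 0.00453 with the replicate term.

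**Figure D2:**
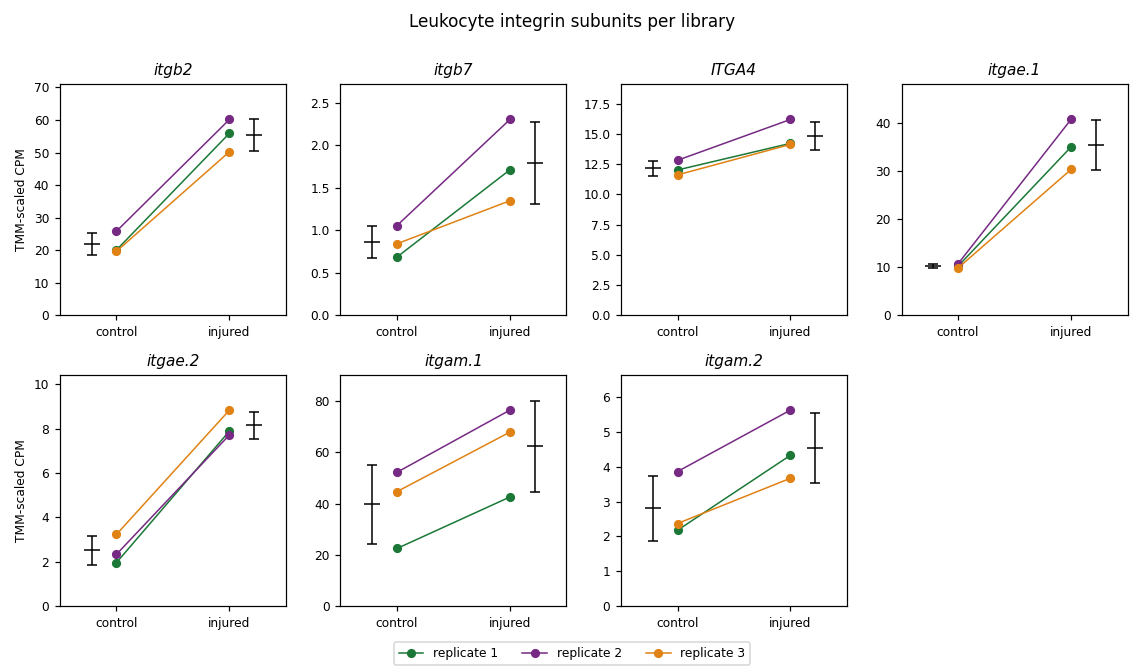
CPM of the 7 leukocyte subunits in each library, with lines between control and injured hemispheres of the same replicate number and black bars for the mean ± SD (n = 3 per condition). Every line rises, and *itgam.1*, where replicate 1 is low in both conditions (22.5 and 42.6 CPM), overlaps between the conditions.

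Set against *ptprc*, which encodes the CD45 phosphatase carried by nearly all leukocytes, the leukocyte subunits did not move alike. These ratios were chosen after the values had been seen. *ptprc* itself was at 19.95, 22.3 and 21.9 CPM in controls and at 36.7, 42.3 and 38.7 CPM after injury, a log2FC of 0.87 (SE 0.073, adjp = 0.00104). The ratio of *itgb2* to *ptprc* CPM was 1.02 ± 0.130 in controls and 1.42 ± 0.114 after injury (SD, n = 3 each). For *itgae.1* it was 0.481 ± 0.0315 and 0.901 ± 0.101, and for *itgae.2* 0.117 ± 0.0269 and 0.209 ± 0.0237 (SD, n = 3 each). These 3 ratios were higher in every injured than in every control library. The ratio of *ITGA4* to *ptprc* went the other way, from 0.569 ± 0.0361 to 0.379 ± 0.0119 (SD, n = 3 each), without overlap. Ratios of *itgam.1*, *itgam.2* and *itgb7* to *ptprc* overlapped between the conditions. An exact permutation test of such a ratio cannot go below 0.1 with these libraries. The called leukocyte markers had log2FC values from 0.71 to 1.65, so each ratio depends on the marker chosen. No other single marker was used. The summed leukocyte subunits per summed leukocyte marker CPM were at 0.255 ± 0.0581 in controls and 0.249 ± 0.0384 after injury (SD, n = 3 each). Whether any subunit changed per leukocyte was not tested.

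Among the matrix-binding subunits, the 10 genes called higher held the beta 1 genes of high level, most alpha subunits of RGD-binding pairs, and *itgb3b*, *itgb4*, *itgb5*, *itgb6* and 1 collagen-binding alpha gene. Their injured libraries lay above all control libraries in each case, which held for 20.3% of all genes. Choosing genes by the call favours this order, so it adds no support to the calls.

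Of the identifiers, 4 carry the name of Itgb1, the common partner of most matrix-binding alpha subunits. Of these, 2 were called higher (50%, against 11.6% of all genes). *itgb1a* (ENSDARG00000071863) was at 28.6, 29.1 and 24.6 CPM in controls and at 40.5, 42.2 and 41.6 CPM after injury, a log2FC of 0.60 (SE 0.072, adjp = 0.00323). *itgb1b* (ENSDARG00000104484) was at 18.3, 17.4 and 16.6 CPM in controls and at 29.2, 30.9 and 25.9 CPM after injury, a log2FC of 0.72 (SE 0.079, adjp = 0.00242). Both stayed called with each library left out. The other two genes named ITGB1 were lower in reads, between 15 and 612 per library, and overlapped between the conditions (log2FC values of 0.15 and 0.27, adjp of 0.813 and 0.522). In the RefSeq annotation of GRCz12tu, 3 genes named itgb1b, itgb1b.1 and itgb1b.2 follow each other directly, and the division of reads among these copies was not tested.

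Alpha subunits of RGD-binding pairs were called higher in 3 of 4 cases (75%, against 11.6% of all genes). *itgav* (ENSDARG00000006314), the partner of Itgb3, Itgb5, Itgb6 and Itgb8, was at 114, 125 and 112 CPM in controls and at 151, 167 and 152 CPM after injury. The spread within each condition was small, and the log2FC of 0.42 (SE 0.060, adjp = 0.00527) stayed called with each library left out. *itga8* (ENSDARG00000078717), a receptor subunit for nephronectin and fibronectin, was at 13.6, 15.6 and 10.4 CPM in controls and at 22.4, 22.8 and 18.9 CPM after injury. Its log2FC was 0.69 (SE 0.15, adjp = 0.0219), with an adjp of 0.0675 without control replicate 1, and of 0.0584 and 0.0656 without injured replicates 1 and 2.

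*ITGA5* (ENSDARG00000006353), the alpha subunit of the classical fibronectin receptor, was at 8.66, 6.36 and 7.20 CPM in controls and at 12.3, 9.73 and 10.2 CPM after injury. Replicate 1 was the highest library of both conditions. This gave a log2FC of 0.54 (SE 0.14, adjp = 0.0389). The call held when control replicate 1 was left out (adjp = 0.0360) but with none of the other libraries left out, where adjp lay between 0.0614 and 0.122. *itga2b* (ENSDARG00000018687), which marks thrombocytes in zebrafish, was not called (0.797 ± 0.0973 and 0.967 ± 0.0114 CPM, SD, n = 3 each, adjp = 0.352).

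Of the beta partners of Itgav, *itgb5* (ENSDARG00000012942) was at 22.5, 24.0 and 20.9 CPM in controls and at 28.6, 33.3 and 28.2 CPM after injury. The log2FC of 0.42 (SE 0.085, adjp = 0.0177) was not called when control replicate 1 (adjp = 0.0650) or 3 (adjp = 0.0678) was left out. *itgb6* (ENSDARG00000002494), in mammals an epithelial subunit whose pair with Itgav activates latent TGF-beta, had 19 to 155 reads per library. It was at 0.326, 0.252 and 0.428 CPM in controls and at 0.862, 1.65 and 1.12 CPM after injury. The log2FC of 1.85 (SE 0.32, adjp = 0.0103) was the largest of all 34 subunits, and it stayed called with each library left out. The 5 skin and epithelial markers together were at 4.55 to 17.9 CPM in controls and 9.83 to 14.3 CPM after injury. This sum depends on the most abundant of them. None of the 5 was called, and their log2FC values ranged from -0.15 to 1.21 with a median of 0.48. A relation of *itgb6* to epithelial cells was not tested.

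*itgb3b* (ENSDARG00000045070), whose pairs bind fibrinogen and vitronectin, was at 1.03, 0.960 and 0.998 CPM in controls and at 2.93, 1.99 and 1.69 CPM after injury. Controls were nearly equal, and the log2FC was 1.15 (SE 0.23, adjp = 0.0160). Leaving out any 1 control ended the call (adjp of 0.0556, 0.0536 and 0.0611 for replicates 1, 2 and 3). The second gene named ITGB3 (ENSDARG00000056767) had at most 27 reads per library (log2FC -0.20, SE 0.37, adjp = 0.782). *ITGB8* (ENSDARG00000028222), an Itgav partner of glia and neurons in the mammalian brain, was at 15.2 ± 0.699 CPM in controls and 13.7 ± 1.63 CPM after injury (SD, n = 3 each), with overlap (log2FC -0.14, SE 0.096, adjp = 0.374).

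Of the 6 laminin-binding subunits, only *itgb4* passed the test (16.7%, near the 11.6% of all genes called higher). *itgb4* (ENSDARG00000028507), the partner of Itga6, was at 32.9, 29.9 and 30.6 CPM in controls and at 51.7, 60.6 and 49.7 CPM after injury. The step was a log2FC of 0.80 (SE 0.083, adjp = 0.00206), with each library left out between 0.70 and 0.85 and called throughout. Its alpha partners were called in neither fit, with log2FC values of 0.19 (SE 0.12, adjp = 0.327) for *ITGA6* (ENSDARG00000042282) and 0.12 (SE 0.087, adjp = 0.435) for *itga6b* (ENSDARG00000069946). *ITGA3* (ENSDARG00000012824), a laminin receptor subunit with Itgb1, was at 5.81, 7.05 and 6.31 CPM in controls and at 7.59, 8.74 and 7.50 CPM after injury. Its groups did not overlap, and its log2FC of 0.31 (SE 0.11) had an adjp of 0.0896 without and 0.00940 with the replicate term. *itga3a* (ENSDARG00000037917) had a log2FC of 0.0075 (SE 0.093, adjp = 0.971).

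Of the 7 collagen-binding alpha genes, 1 was called higher (14.3%), near the 11.6% of all genes. *ITGA11* (ENSDARG00000007950), in mammals a subunit of fibroblasts, was at 3.98, 3.78 and 3.45 CPM in controls and at 4.87, 5.08 and 4.85 CPM after injury. Its log2FC was 0.40 (SE 0.10, adjp = 0.0370), and its adjp was 0.0701 to 0.117 with each library left out. The other gene with this name (ENSDARG00000036086) was at 3.42 ± 0.159 and 3.67 ± 0.199 CPM (SD, n = 3 each, adjp = 0.583).

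*ITGA1* (ENSDARG00000074316), a collagen and laminin receptor subunit, was at 44.0, 46.6 and 52.2 CPM in controls and at 41.3, 44.2 and 44.8 CPM after injury. It was the subunit called lower with the replicate term (adjp = 0.0437), and its conditions overlapped. The log2FC of -0.13 (SE 0.072) had an adjp of 0.266 without that term. *ITGA2* (ENSDARG00000062974), with 15 to 39 reads per library, was at 0.257, 0.252 and 0.285 CPM in controls and 0.461, 0.395 and 0.480 CPM after injury. Its log2FC of 0.74 (SE 0.23) had an adjp of 0.0670 without and 0.0406 with the replicate term.

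In all, 14 of the 27 matrix-binding subunits were called in neither fit, with log2FC values between -0.20 and 0.40, and 13 of them overlapped between the conditions. These include *ITGA9*, *ITGA10*, *itga6l*, *itga2.1* and *itga2.3*. Of the 17 not called without the replicate term, 7 had a mean below 1 CPM and 8 to 90 reads per library. One of them was *ITGA2*, called with the replicate term.

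**Figure D3:**
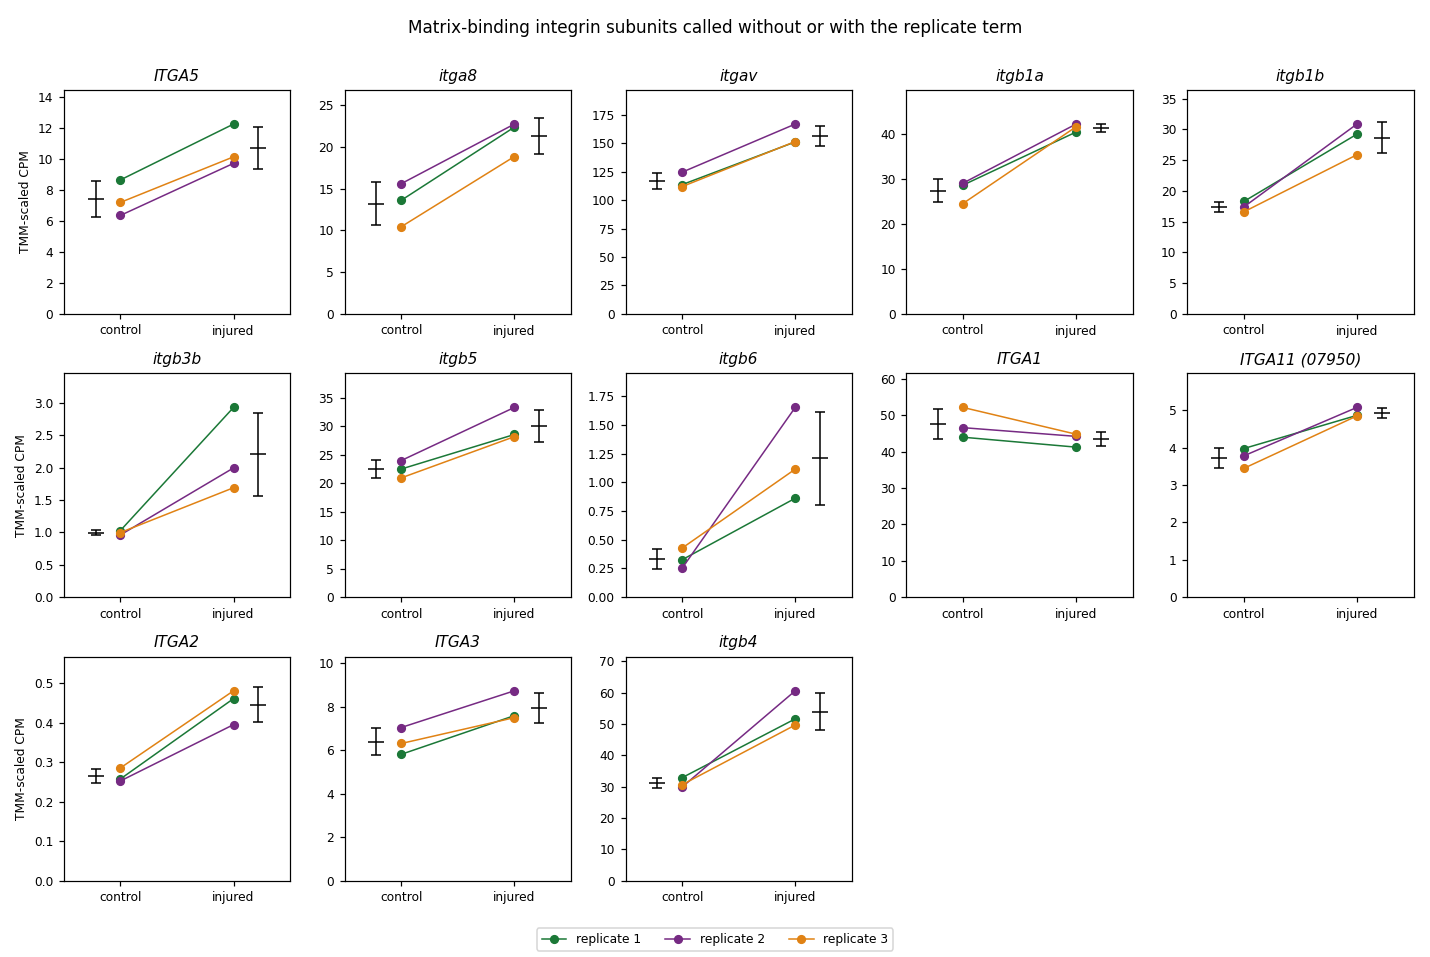
CPM of the 13 matrix-binding subunits called with or without the replicate term, with lines between hemispheres of the same replicate number and black bars for the mean ± SD (n = 3 per condition). Lines rise for all but *ITGA1*, which fell in each number, and the conditions are separate for *itgav*, at 112 to 125 and 151 to 167 CPM.

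Summed over the 7 leukocyte subunits, the level was 69.6, 109 and 92.3 CPM in controls and 162, 209 and 177 CPM after injury, and the mean rose 2.02-fold. Over the 27 matrix-binding subunits it was 361, 375 and 346 CPM in controls and 464, 500 and 452 CPM after injury, 1.31-fold on average. Neither sum overlapped between the conditions. The leukocyte share of all reads on the 34 subunits was 16.2%, 22.5% and 21.0% in controls and 25.8%, 29.5% and 28.1% after injury. The exact binomial 95% interval of the lowest share was 15.7% to 16.6%, and the others were of like width. These intervals cover counting error only, and the spread between libraries exceeded it. Much of that spread came from *itgam.1*, and without this gene the leukocyte sum was 50.4 ± 5.36 and 120 ± 12.1 CPM (SD, n = 3 each), 2.38-fold higher. The summed leukocyte markers, mostly *cd74a*, rose 2.07-fold, and the leukocyte subunits 2.02-fold. Each of these folds depends on the most abundant genes of its sum, and a relation between them was not tested. Sums over genes weigh each gene by its reads, and no test was run on them.

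**Figure D4:**
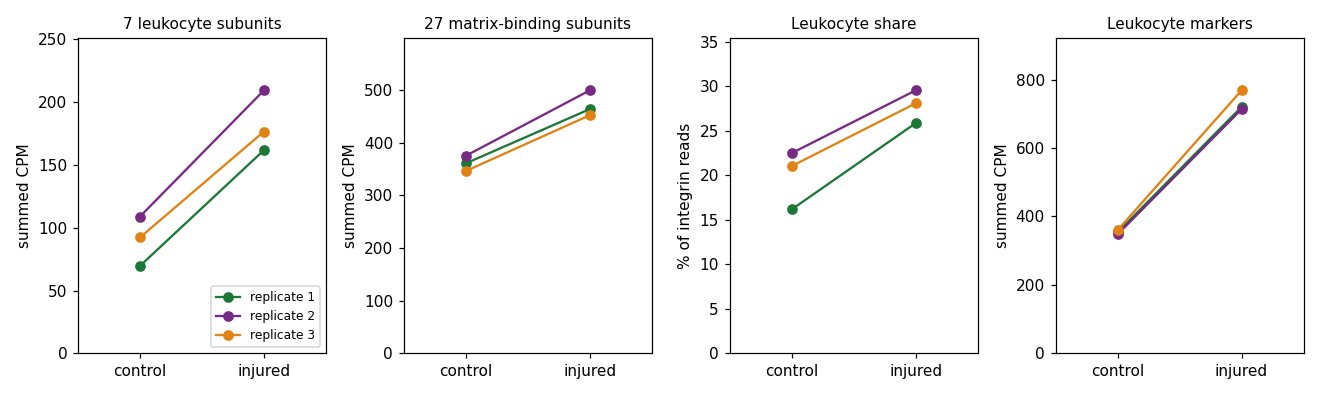
Summed CPM of leukocyte and of matrix-binding subunits, the leukocyte percentage of integrin reads, and the summed CPM of leukocyte markers, with lines between hemispheres of the same replicate number. The leukocyte sum rose 2.02-fold and the matrix-binding sum 1.31-fold on average, and the conditions are separate in all 4 panels.

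The proteins that switch integrins on, tie them to actin or act in focal adhesions were followed in a list of 54 genes. The list also held 5 inhibitors and endocytic adaptors of integrins. After injury, 20 of the 54 genes were called higher and 3 lower (11.6% and 4.82% over all genes), and the median log2FC was 0.081. The share called lower was near that of all genes. Of the 13 regulators of activation, 5 were called higher (38.5%) and 2 lower, with a median log2FC of -0.022. In every replicate number, 6 of them were higher and 6 lower (31.5% and 31.6% over all genes). Parts of the machinery known from blood cells rose most among these regulators. *apbb1ip*, the adaptor RIAM that brings talin to the membrane in leukocytes, went from 5.19, 6.67 and 5.87 CPM to 13.4, 14.3 and 13.5 CPM, a log2FC of 1.21 (SE 0.10, adjp = 0.00101). *fermt3a*, a gene of the kindlin of blood cells, went from 1.94, 2.69 and 2.50 CPM to 5.21, 6.55 and 5.94 CPM, a log2FC of 1.31 (SE 0.16, adjp = 0.00310). The second kindlin-3 gene, *FERMT3* (ENSDARG00000030938), had a log2FC of 0.73 (SE 0.16, adjp = 0.0246). Its adjp was 0.0117 without injured replicate 3 and between 0.0536 and 0.0902 without each of the other libraries. The kindlins *FERMT1* and *FERMT2* of other tissues were not called (adjp of 0.539 and 0.607). *tln1*, the talin of most tissues, rose from 84.4 ± 3.53 to 117 ± 1.98 CPM (SD, n = 3 each, log2FC 0.47, SE 0.044, adjp = 0.00154). *TLN2* (ENSDARG00000017901), the talin prominent in brain and muscle of mammals, fell from 77.5 ± 3.50 to 68.0 ± 2.45 CPM (SD, n = 3 each, log2FC -0.19, SE 0.051, adjp = 0.0449). With each library left out, adjp ranged from 0.0489 to 0.143 and the gene passed in 1 of 6 fits.

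Of the complex of Ilk, Pinch and parvin, which docks on beta tails, 4 of 6 genes were called higher (66.7%, against 11.6% of all genes). Among them were *ilk*, *lims1* and *parvaa*. *parvg*, the parvin of blood cells, rose from 2.61, 3.29 and 2.81 CPM to 4.61, 6.06 and 5.45 CPM (log2FC 0.89, SE 0.15, adjp = 0.00878). Of 16 genes that link integrins to actin, 9 were called higher (56.2%, against 11.6% of all genes). The largest increase of the list was that of the tensin *tns3.1*, from 0.154, 0.228 and 0.143 CPM to 1.04, 1.13 and 0.790 CPM (log2FC 2.48, SE 0.28, adjp = 0.00250). *VASP* (ENSDARG00000099690), a promoter of actin filament growth, had a log2FC of 0.77 (SE 0.20, adjp = 0.0432), and its adjp was 0.0247 without injured replicate 1 and between 0.0535 and 0.123 without each of the other libraries. The most abundant genes of the list that were not called were *tns1a* (287 ± 15.6 and 258 ± 21.2 CPM, SD, n = 3 each, adjp = 0.177, and 0.0145 with the replicate term) and *actn4* (213 ± 9.60 and 223 ± 2.11 CPM, SD, n = 3 each, adjp = 0.364). Of 14 kinases and adaptors of focal adhesions, 2 were called higher (*pxnb* and *PXN*) and 1 lower (*git1*), near the shares of all genes. *PXN* and *git1* passed in none of the fits with a library left out, with an adjp of 0.0523 to 0.124 and of 0.0634 to 0.109. None of the 5 inhibitors and endocytic adaptors was called, and their median log2FC was -0.11. With the replicate term, 3 of these 5 were called lower and none higher. With the replicate term, 22 genes of the machinery were higher and 11 lower (19.9% and 16.2% over all genes), and with scaling by library size alone 21 were higher and 0 lower. Scaling by library size alone moved the median log2FC of all genes from -0.0038 to 0.053. The shares called over all genes are not given for it, so these counts cannot be set against all genes. The number of genes of the list called, 23 with all libraries, was 12 to 16 with each library left out, lowest without control replicate 3.

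Ligands other than collagens and laminins were followed in a list of 48 genes, of which 46 passed the filter. Of these, 15 were called higher and 3 lower (11.6% and 4.82% over all genes), with a median log2FC of 0.24. The share called lower was near that of all genes. Fibronectin, the ligand of Itga5, Itga8, Itgav and Itga4, rose in both its genes. *fn1a* went from 13.9, 14.4 and 13.7 CPM to 33.7, 38.9 and 29.1 CPM, a log2FC of 1.28 (SE 0.10, adjp = 9.73e-04). *FN1* (ENSDARG00000006526) went from 41.3, 26.98 and 34.9 CPM to 84.5, 55.5 and 61.4 CPM, a log2FC of 0.97 (SE 0.19, adjp = 0.0174, and 0.0637 without control replicate 3). The fibrillin *fbn2b* and the growth factor *tgfb1b*, whose latent form is bound by Itgav pairs, had log2FC values of 1.40 (SE 0.25, adjp = 0.0109) and 0.97 (SE 0.17, adjp = 0.0100). Another gene named for this fibrillin, *FBN2* (ENSDARG00000051896), went the other way, with overlap between the conditions (log2FC -0.46, SE 0.59). Its adjp was 0.670 without the replicate term, and with that term it was called lower (adjp = 0.00351). *spp1*, which encodes osteopontin, was at 2.88, 1.44 and 0.674 CPM in controls and 27.1, 10.5 and 2.53 CPM after injury. The conditions overlapped, since injured replicate 3 lay below control replicate 1. The log2FC of 3.04 (SE 0.86) had an adjp of 0.0525 without and 2.06e-04 with the replicate term.

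Of 10 tested counter-receptors and complement ligands of leukocyte integrins, 5 were called higher (50%, against 11.6% of all genes). *icam3*, a member of the ICAM family that Itgb2 pairs bind in mammals, went from 13.4, 14.2 and 11.8 CPM to 23.9, 26.1 and 21.4 CPM (log2FC 0.86, SE 0.10, adjp = 0.00286). *vcam1b*, a ligand of Itga4, rose by 0.40 on the log2 scale (SE 0.098, adjp = 0.0318), with an adjp of 0.0333 to 0.0940 and 2 of 6 calls when each library was left out. *vcam1a* was not called (adjp = 0.841). *c3a.1*, a gene of complement C3, whose fragment is bound by Mac-1 in mammals, was at 0.891, 0.792 and 0.700 CPM in controls and 2.31, 1.28 and 1.53 CPM after injury (log2FC 1.11, SE 0.26, adjp = 0.0273). Its adjp was 0.0255 without injured replicate 2 and between 0.0527 and 0.0985 without each of the other libraries. The C3 genes *c3a.2* (log2FC 0.11, SE 0.36, adjp = 0.881) and *c3a.3* (log2FC -0.041, SE 0.45, adjp = 0.968) were not called. Both overlapped between the conditions and had at most 19 reads per library. *cdh1*, for the Itgae ligand E-cadherin, was at 0.261 ± 0.106 and 0.616 ± 0.505 CPM (SD, n = 3 each, adjp = 0.241). Of 3 fibrinogen chain genes, 2 passed the filter and neither was called. Fibronectin and RGD ligands had 8 of 16 genes called higher (50%) and 1 lower. Among 18 tenascins, thrombospondins and other matricellular ligands, 2 were called higher (11.1%, near the 11.6% of all genes) and 2 lower, where 4.82% of all genes were lower. With the replicate term, 7 of these 18 were higher (38.9%, against 19.9% of all genes) and 3 lower. The most abundant ligand genes that were not called were *EDIL3* (ENSDARG00000093413) at 181 ± 1.26 and 174 ± 6.95 CPM and the tenascin *TNR* at 124 ± 5.26 and 123 ± 5.21 CPM (SD, n = 3 each, adjp of 0.423 and 0.955). The 3 ligand genes called lower were *NPNT* and both genes named *TNC* in the name table. One of the latter (ENSDARG00000078362) had a log2FC of -0.43 (SE 0.073, adjp = 0.00955) and passed with each library left out. *NPNT* (ENSDARG00000018721), for nephronectin, was at 63.0, 59.5 and 61.0 CPM in controls and at 55.1, 49.9 and 53.0 CPM after injury, without overlap (log2FC -0.22, SE 0.052, adjp = 0.0306). It passed in 1 of 6 fits with a library left out (adjp of 0.0309 to 0.103). The other *TNC* gene (ENSDARG00000021948), for the tenascin bound by Itga9 and Itga8, was lower at a log2FC of -0.25 (SE 0.063, adjp = 0.0388), and passed in 1 of 6 fits with a library left out (adjp of 0.0459 to 0.118). With the replicate term, 21 of the ligand genes were higher and 5 lower (19.9% and 16.2% over all genes), and with scaling by library size alone 15 were higher and 1 lower. For that scaling, which moved the median log2FC of all genes to 0.053, the shares over all genes are not given. The number of ligand genes called, 18 with all libraries, was 11 when control replicate 1 and 10 when control replicate 3 was left out, and 12 to 16 without each of the other libraries.

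**Figure D5:**
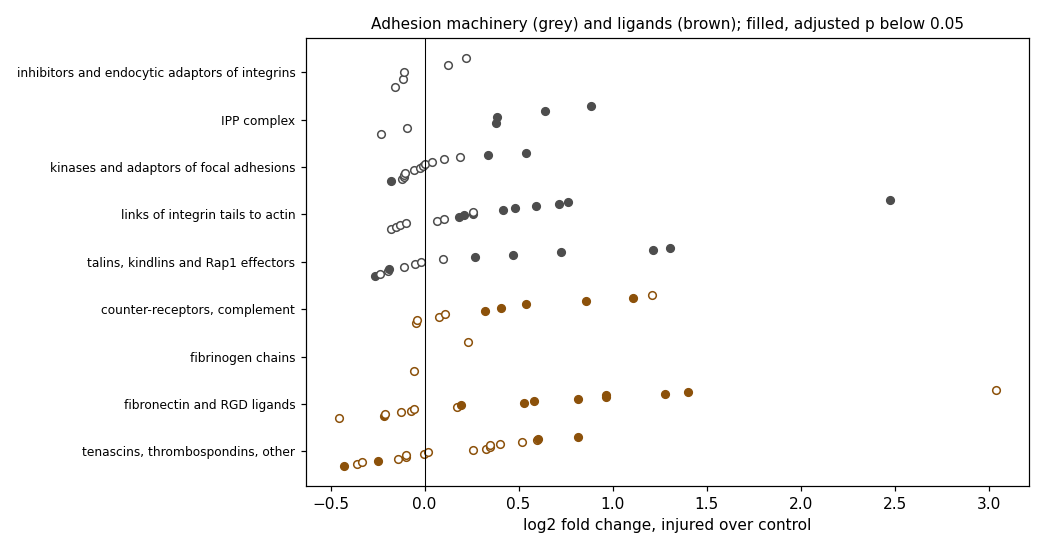
Log2FC of injured over control hemispheres for genes of the integrin adhesion machinery (grey) and for ligands outside collagens and laminins (brown), grouped by role, with filled points for an adjp below 0.05. The points of the machinery range from -0.26 to 2.48 and those of the ligands from -0.46 to 3.04.

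The gene found by the name rule that encodes no integrin subunit, *itgb3bp* (ENSDARG00000097493), had 4 to 50 reads per library. It was at 0.0686, 0.204 and 0.207 CPM in controls and at 0.402, 0.533 and 0.387 CPM after injury. All injured libraries were above all control libraries. Its log2FC was 1.42 (SE 0.39, adjp = 0.0475), and its adjp was between 0.0835 and 0.140 with each library left out.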

How the data were processed

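Per the labels and the methods of the study, the authors mapped reads to GRCz11 with STAR, kept 1 mapping, the best by quality, where a read had several, and ran HTSeq (union mode) for gene counts. They deposited raw counts per gene, 1 file per library. Versions, strand setting and annotation release are not given in the sources used here, so reads of overlapping genes are uncertain. Reads on no gene (27.2% to 29.7%) or on more than 1 gene (1.45% to 1.53%) were left out.

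All genes entered 1 fit of edgeR 4.0.16 under R 4.3.3 (filterByExpr, TMM, glmQLFit, glmQLFTest, no term but condition, *p*-values adjusted by Benjamini-Hochberg), and members were read from that table. SEs were derived from the size of each log2FC and its F statistic (log2FC over root F). Alternatives were DESeq2 1.42.0, other normalizations and filters, a replicate block, and each library left out. The steps were tested on simulated data. Residuals of same-numbered libraries correlated across genes at 0.571, 0.456 and 0.354, and of others at -0.405 to -0.131. Libraries of the same number thus shared part of their variation, and its source was not tested. The study names the opposite hemisphere as control without tying the replicate numbers to single fish. Libraries of 1 condition differed by more than counting error (chi-square per degree of freedom 16.1 to 30.1).

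Members and lists were chosen with earlier results of these data known. Values per library are given for all leukocyte subunits, and for matrix-binding subunits that were called or had a mean of at least 20 CPM. Of the machinery and ligand lists, the rule names up to 6 called genes with the largest change and the 2 most abundant genes not called. Other genes of these lists were named after their values were seen. Of the symbols written, 53 of 56 (machinery), 47 of 49 (ligands) and 78 of 81 (markers) matched a gene name, where a paralogue letter was dropped if needed. Each gene that carried a matched name was counted, so a list can hold more genes than symbols.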

Additional observations from a re-analysis of the deposited data

How the results depend on the processing

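The DESeq2 Wald test with Bonferroni adjustment, as the methods of the study name it, called 7 of the 34 integrin subunits. These were 3 leukocyte and 4 matrix-binding subunits, and 10 genes of the machinery and 8 ligands were also called. The counts were not compared with the genes that the study itself called. With injured replicate 2 alone against the controls, an alternative added after the data were seen that leaves out the libraries with photoreceptor transcripts and assumes that the lone library varies like the controls, 10 subunits were called, 6 of them matrix-binding, with 12 genes of the machinery and 9 ligands. Leaving out single libraries, the number called was 9 to 12 for all subunits, 3 to 5 for leukocyte subunits, 6 to 8 for matrix-binding subunits, 12 to 16 for the machinery and 10 to 16 for ligands. Leukocyte subunits numbered 3 without control replicates 1 or 3 or injured replicates 1 or 2. For these fits the shares called over all genes are not given here. The counts describe the lists only and cannot be set against all genes. The replicate block called 20 subunits. Under the other normalizations and filters and DESeq2 with Benjamini-Hochberg adjustment, 14 to 16 subunits were called, and none was called lower. For those normalizations and filters the shares over all genes are likewise not given. *ITGA4* was past the threshold neither with RLE normalization (adjp = 0.0534) nor without a filter (adjp = 0.0584). The uncalled *EDIL3* (ENSDARG00000093413) changed sign to 9.45e-04 with library size alone. The uncalled *TNR* changed sign to 0.0502 with library size alone and to 0.0156 with only genes above a mean count of 100, and ranged from -0.0466 to 0.0282 with single libraries left out, positive without control replicate 1 or injured replicates 2 or 3. The cause of these changes was not tested. Scaling by library size alone moved the median of all genes to 0.053. Of the matrix-binding subunits not called, 7 had 90 reads or fewer per library.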

Other observations

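The genes left out by name encode proteins related to integrins without being subunits. *itgbl1* (ENSDARG00000040985), a secreted protein that resembles a stretch of the beta subunits, was at 9.65, 9.67 and 7.36 CPM in control and at 12.02, 16.7 and 15.9 CPM after injury. The groups did not overlap, and the log2FC was 0.74 (SE 0.16, edgeR adjusted *p*-value 0.0198, and 0.0128 to 0.0599 with each library left out, with 2 of 6 calls). *ITGB1BP1* (ENSDARG00000007169), which competes with talin for the Itgb1 tail, was at 14.2, 14.7 and 14.1 CPM in control and at 16.2, 14.6 and 15.9 CPM after injury, with overlap and a log2FC of 0.12 (SE 0.065, edgeR adjusted *p*-value 0.260).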
